A study of Arabidopsis thaliana with 4 samples.

Results

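Structural RNA annotations without a gene name formed a small part of the entry list and a large part of the reads in nuclear RNA immunoprecipitates of Arabidopsis thaliana. The entries described here have names that begin with ENSRNA, and at least 200 estimated reads summed over the 4 libraries. They were chosen by these summed reads, so their levels are given as a description. This selection gave 108 entries of 55524 in the tables, out of 1427 ENSRNA entries considered. A further 2 ENSRNA entries, as long as the larger of the nuclear ribosomal RNA genes in the reference (AT2G01010), were left out. Just inside the minimum were ENSRNA049493880 with 206 reads and ENSRNA049495680 with 208, and just outside it were ENSRNA049494423 with 191 and ENSRNA049493737 with 183.

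The libraries came from Col-0 plants 4 weeks old, grown in soil with 16 h light and 8 h dark at 22 °C, and fixed with 0.1% formaldehyde before nuclei were isolated. One line carries MTA, the catalytic subunit of the enzyme complex that writes m6A on RNA, fused to GFP. The labels call the material both leaf and aerial tissue. For the control line, titles say GFP whereas the genotype field says CFP. From each line RNA was sequenced before (input) and after (IP) capture on GFP-binding beads, with 1 library in each of the 4 groups. The sources used here give neither the promoter of the MTA fusion nor the number of plants behind a library. Per library, 36098699 to 45198238 reads were assigned. The MTA transcript took 52.1 and 356 RPM (reads scaled to a total of 1000000) in the MTA-GFP input and IP, against 1.60 and 0.686 in the control. The 5 leaf mesophyll markers summed to between 398 and 2040 RPM, and the 4 flower markers to between 0.0442 and 0.222.

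Structural RNAs act as folded RNA rather than as templates for protein. The classes known in plant nuclei include ribosomal RNAs, transfer RNAs, the small nuclear RNAs of the spliceosome, the small nucleolar RNAs that guide modification of other RNAs, and the RNA of the signal recognition particle. Many are encoded by several near-identical gene copies, and chloroplasts and mitochondria carry transfer and ribosomal RNA genes of their own. The files give each entry only an identifier and a length, and 0 of the identifiers occur in the reference gene table. No class, genome of origin or function is therefore given to any entry here.

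With 1 library per group no difference could be tested against replicates. Intervals are 95% intervals and cover counting error only, as reads copied by PCR and carrying no molecular identifiers are not separate molecules. A ratio compares the libraries and not the conditions behind them. Fewer cells contributing an RNA and less RNA per cell cannot be told apart in such bulk samples. An IP over input ratio divides an entry's share of all reads in the IP by its share in the input, and the double ratio divides the MTA-GFP ratio by the control ratio. Series of 4 values run through the MTA-GFP library before and after capture, and then the control library before and after capture.

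The entries took a larger share of reads in both IPs than in their inputs, and the largest share in the MTA-GFP IP. With MTA-GFP they held 3.60% of input reads (95% interval 3.59 to 3.61) and 15.5% of IP reads (15.4 to 15.5). In the control they held 2.72% of input reads (2.71 to 2.72) and 5.32% of IP reads (5.32 to 5.33). These are IP over input ratios of 4.29 and 1.96, and a double ratio of 2.19 (2.18 to 2.20). The choice by read sum hardly affected these totals, since the 1319 ENSRNA entries below the minimum added between 0.00267% and 0.00762% of reads.

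The direction of the double ratio depended on the denominator. Organelle entries made up 21.2% and 6.10% of the MTA-GFP input and IP, and 24.3% and 50.8% of the control input and IP. Among reads outside organelles the double ratio of the 108 entries was 1.19. Among reads outside organelles and ribosomal RNA the entries held 54.0%, 60.7%, 33.6% and 67.4%, and the double ratio turned to 0.560. Organelle and ribosomal reads were removed by locus name or by the length of the larger ribosomal RNA gene. The 108 entries, of unknown class and genome, therefore stayed in both denominators, and these shares do not show what kind of RNA they are. Per nuclear mRNA read it was 0.294, and on a scale that sets the typical nuclear locus to no change (TMM) it was 0.221. The MTA-GFP ratio went from 4.29 on all reads to 1.17 per mRNA read and 0.954 on TMM, while the control ratio went from 1.96 to 3.99 and 4.32.

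**Figure D1:**
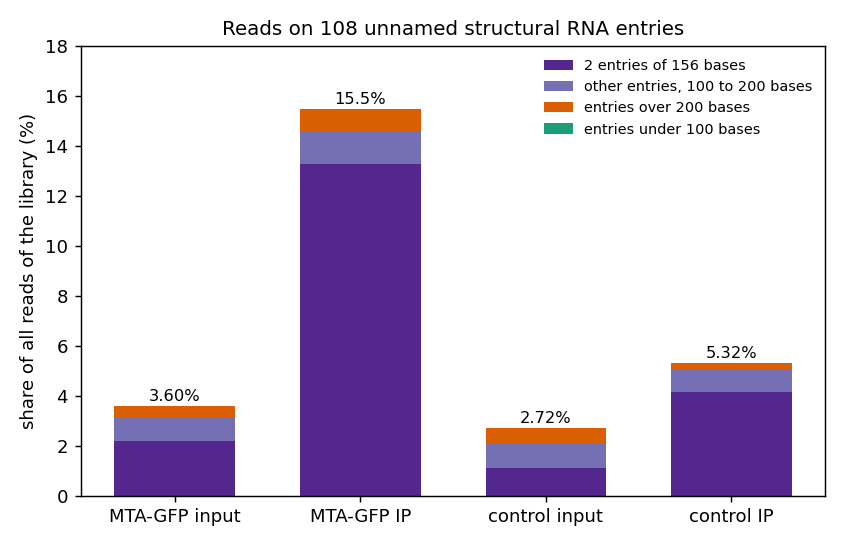
Share of all reads (%) on the 108 entries in each of the 4 libraries, stacked as the pair of 156 bases, the other entries of 100 to 200 bases, those over 200 and those under 100 bases. The pair of 156 bases fills most of the 15.5% in the MTA-GFP IP, and entries under 100 bases are too few to see.

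By length, 10 entries were under 100 bases, 79 were of 100 to 200 bases and 19 were over 200, with 72 bases the shortest and 374 the longest. Entries of 100 to 200 bases held 91.4% of the reads of the group, those over 200 held 8.53% and those under 100 held 0.0454%. The sums of these classes differed in both pairs of libraries. The shortest were scarce in both IPs, the middle class was more abundant in both, and the longest gained share in the MTA-GFP IP and had a smaller share in the control IP.

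The middle class took 3.12% of the MTA-GFP input, 14.6% of its IP, 2.08% of the control input and 5.05% of the control IP, which is 4.67-fold with MTA-GFP and 2.42-fold with the control. Entries over 200 bases took 0.477%, 0.906%, 0.625% and 0.271% in the same order, 1.90-fold with MTA-GFP (1.89 to 1.91) and 0.433-fold with the control (0.430 to 0.436). Their double ratio of 4.38 was the largest of the 3 classes on all reads, and per mRNA read it was 0.588. The sum rested on a few abundant entries, since 12 of the 19 were higher in both IPs by at least 2-fold (5.49% of all entries with at least 200 reads) and 2 were higher with MTA-GFP and lower with the control (43.7% of all). Entries under 100 bases took 0.00480% and 0.000399% of the MTA-GFP pair and 0.00566% and 0.000723% of the control pair. These were 0.0834-fold (0.0698 to 0.0985) and 0.128-fold (0.114 to 0.144).

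For the shortest class the read minimum matters, since the entries reached it through reads of the inputs. The other 478 entries under 100 bases together had 476, 896, 468 and 617 reads. Their sum was 2.29-fold with MTA-GFP (2.05 to 2.57) and 1.17-fold with the control (1.03 to 1.32), above 1 in both pairs. Their double ratio was 1.96, against 0.652 for the 10 chosen entries. The low values of the 10 entries therefore describe those entries and not short annotations in general.

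A pair of entries of 156 bases, ENSRNA049494515 and ENSRNA049494585, held 75.7% of all reads of the 108. ENSRNA049494515 stood at 10962 RPM in the MTA-GFP input, 66423 in the MTA-GFP IP, 5459 in the control input and 20687 in the control IP. ENSRNA049494585 had the same values to within 1% in every library. Together they took 2.19%, 13.3%, 1.09% and 4.14% of all reads, so that more than 1 read in 10 of the MTA-GFP IP was assigned to them. The pair was higher in both IPs, 6.06-fold with MTA-GFP (6.05 to 6.07) and 3.79-fold with the control (3.78 to 3.80), and its double ratio was 1.60. On the log2 scale this is 0.68, below the median of 3.15 over all 7911 entries with at least 200 reads. The pair also differed between the inputs, with a 2.01-fold larger share in the MTA-GFP input.

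Without this pair the picture of the class changed. The other 106 entries took 1.41% and 2.18% of the MTA-GFP input and IP, 1.55-fold, and 1.62% and 1.19% of the control input and IP, 0.730-fold. The control ratio thus turned from above to below 1, whereas the double ratio of 2.12 stayed close to that with the pair. The share in the inputs turned as well, from 1.33-fold higher with MTA-GFP to 0.867-fold.

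Equal values of the kind seen in this pair were common. Salmon divides reads that fit several entries, and identical sequences then receive equal estimates. Counting as equal those entries of one length whose reads agreed within 1% (or 0.5 reads) in every library, 27 of the 108 entries fell into 9 equal groups, 8 of them pairs, and the 108 entries had 90 distinct profiles. The equal groups held 84.2% of the reads of the 108. The largest was a set of 11 entries of 119 bases, described below. Sequences of the entries were not used here, so whether equal entries are identical was not tested.

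For 7 entries the equal partner was a named locus of the same length, outside the ENSRNA set. ENSRNA049757802 (158 bases) had 308, 5691, 248 and 1787 reads, and AT1G09687 (MIR4228), a microRNA locus, had 308, 5691, 248 and 1787. ENSRNA049757945 (374 bases) had 38.5, 119, 181 and 2322 reads, the same as AT3G06345 (MIR5642a), a microRNA locus within 10 kb of a ribosomal RNA gene. Each of these named loci therefore carries a value that an unnamed entry carries too. The other 5 partners were annotated as small nucleolar RNA genes, which guide chemical modification of other RNAs: AT2G09700, AT3G24615, AT4G06255, AT3G08485 and AT3G09225.

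AT3G08485 and its equal entry ENSRNA049493723 (200 bases) each had 33.5, 338, 30.0 and 1084 reads. Both IPs were above their inputs, and the control IP was the highest library. AT3G09225 and ENSRNA049493712 (124 bases) each had 71.0, 272, 35.5 and 247 reads, again with both IPs above both inputs.

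**Figure D2:**
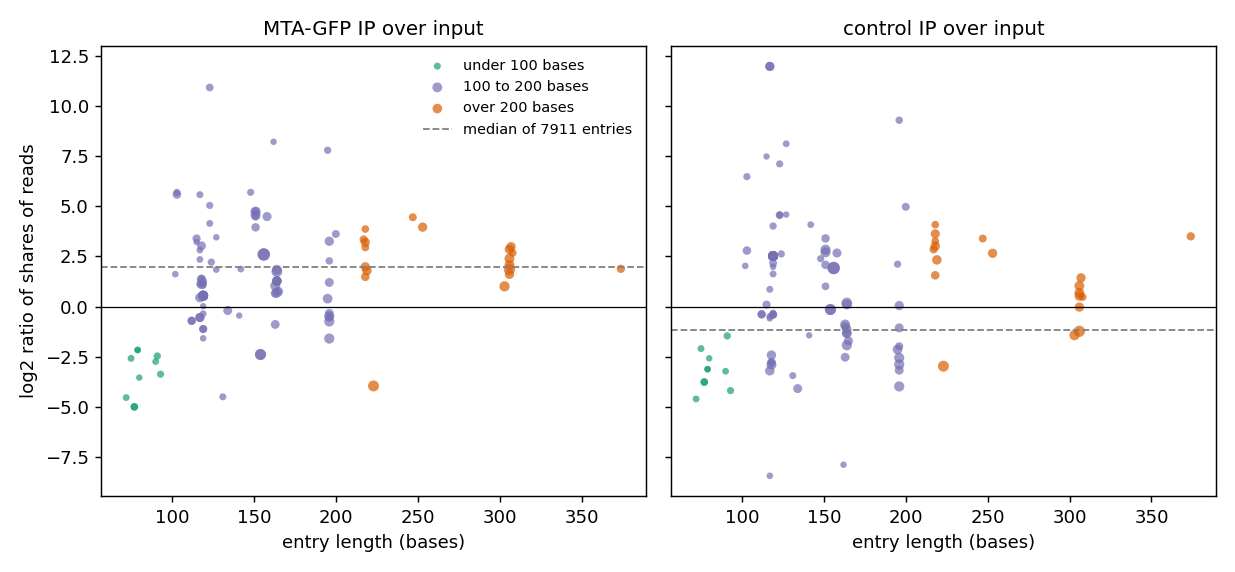
Log2 ratio of shares of all reads against entry length (bases) for MTA-GFP IP over input and control IP over input, with 1 point per entry (larger for more reads) coloured by length class. The dashed line is the median of all 7911 entries with at least 200 reads, at 1.98 with MTA-GFP and -1.16 with the control, and all 10 entries under 100 bases lie below 0 in both panels.

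Single entries were counted as higher or lower when the ratio was at least 2-fold and its counting interval left out 1, with 0.5 reads added to each count. The same rule was applied to all 7911 entries of the tables with at least 200 reads, mostly mRNA. In MTA-GFP IP over input 60 of the 108 entries (55.6%) were higher, against 84.0% of all entries, and 18 were lower, against 3.86%. In control IP over input 52 entries (48.1%) were higher, against 6.18% of all, and 36 were lower, against 56.7%. In the double ratio 50 entries (46.3%) were higher, against 91.0% of all, and 28 were lower, against 2.20%. Over the 90 distinct profiles the higher and lower counts were 58 and 14 with MTA-GFP, 40 and 33 with the control, and 49 and 15 in the double ratio.

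Because most mRNA entries had a larger share of the MTA-GFP IP, the unnamed entries are also given against the median of all entries. Both medians move with the denominator, and the difference between them does not. The median log2 ratio of the 108 entries was 1.25 with MTA-GFP, 0.73 below that of all 7911 entries (difference -0.73). With the control it was 0.60, and the difference was 1.76 above that of all entries. In the double ratio it was 0.75, and the difference from all entries was -2.40. Entries that reached the minimum through 1 library had to differ, so these counts and medians support no statement about the class beyond the libraries at hand.

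Entries high in one IP over input ratio tended to be high in the other. Over the 90 distinct profiles Pearson's r was 0.47 and Spearman's rho 0.65, as a description. Entries under 100 bases, which reached the read minimum through the inputs, were low in both ratios, and their part in this was not tested. The correlation was not computed over all entries. Both calls were upward for 36 entries, against 5.49% of all entries, and downward for 13 (10 of them under 100 bases), against 3.44%. A further 12 were higher with MTA-GFP and lower with the control, against 43.7% of all. The opposite combination was met by 0 of the 108 and by 0.0885% of all entries. The MTA-GFP IP was the library with the highest RPM for 53 entries, the control input for 25, the control IP for 22 and the MTA-GFP input for 8.

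Compared directly, 53 entries were higher in the MTA-GFP IP than in the control IP, against 91.2% of all entries, and 10 were lower, against 1.55%. Between the inputs 29 entries were higher with MTA-GFP, against 3.77% of all, and 15 were lower, against 46.6%. The 29 include the 11 equal entries of 119 bases, and over distinct profiles 17 were higher and 14 lower.

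The entry with the most reads over 200 bases was ENSRNA049495734, of 306 bases. It stood at 1542 RPM in the MTA-GFP input, 5568 in the MTA-GFP IP, 2656 in the control input and 1127 in the control IP. It was thus highest in the MTA-GFP IP and lowest in the control IP, 3.61-fold with MTA-GFP and 0.424-fold with the control. Its log2 double ratio was 3.09 (3.07 to 3.11), against a median of 3.15 over all 7911 entries. For all 5 entries of 306 bases the MTA-GFP IP exceeded its input, with log2 ratios from 1.61 to 2.86. With the control they ran from -1.24 to 1.03, so that ENSRNA049495734 was alone in being lower by the size rule.

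ENSRNA049495735, also of 306 bases, stood at 118, 618, 82.1 and 131 RPM. ENSRNA049493835 stood at 133, 558, 54.9 and 112 RPM. Both were higher in both IPs, in contrast to ENSRNA049495734, with log2 double ratios of 1.72 and 1.04. ENSRNA049495687, of 303 bases, resembled ENSRNA049495734 at a lower level, with 353, 710, 398 and 148 RPM and a log2 double ratio of 2.43 (2.38 to 2.48). These double ratios lie below the median of 3.15 over all entries.

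ENSRNA049495549, of 223 bases, was depleted in both IPs. It stood at 2365 RPM in the MTA-GFP input, 152 in the MTA-GFP IP, 2881 in the control input and 366 in the control IP. Both inputs lay above both IPs, 15.6-fold with MTA-GFP and 7.88-fold with the control, and the log2 double ratio was -0.99 (-1.03 to -0.94). It was the single entry over 200 bases that was lower in the MTA-GFP IP by the size rule, and it alone held 49.6% of the reads of that class in the MTA-GFP input.

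Next to the abundant pair of 156 bases stood an equal pair of 154 bases, ENSRNA049495034 and ENSRNA049495094, with the reverse behaviour in the MTA-GFP IP. ENSRNA049495034 stood at 1583 RPM in the MTA-GFP input, 301 in the MTA-GFP IP, 2169 in the control input and 1955 in the control IP. The MTA-GFP IP was the 1 low library, 5.26-fold below its input, while the control IP was at 0.901-fold its input. The log2 double ratio was -2.24 (-2.28 to -2.21). Chloroplast entries, summed, had ratios of 0.299 for the MTA-GFP pair and 2.25 for the control pair, and their part in this result was not tested.

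Entries of 151 bases were among the most enriched in both IPs. ENSRNA049495719 stood at 34.3 RPM in the MTA-GFP input, 916 in the MTA-GFP IP, 33.5 in the control input and 240 in the control IP. Both inputs were alike and both IPs were higher, 26.7-fold with MTA-GFP and 7.15-fold with the control. The 5 entries of this length were all higher in both IPs by the size rule, against 5.49% of all entries. Their log2 ratios were 3.95 to 4.74 for MTA-GFP and 1.01 to 3.40 for the control. Summed, they took 74.6, 1839, 73.7 and 491 RPM.

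Entries of 118 bases separated the IPs more than any other length with at least 3 entries. Their sum was 252 RPM in the MTA-GFP input, 661 in the MTA-GFP IP, 463 in the control input and 67.3 in the control IP. All 4 entries were higher with MTA-GFP and lower with the control, as were 43.7% of all 7911 entries. Their log2 double ratios were 3.78 to 5.83 on all reads, against a median of 3.15 over all entries. On the TMM scale their control calls stayed lower, and their MTA-GFP calls became neither or lower. ENSRNA049493691 had 628, 4219, 1412 and 229 reads in that order, and its log2 double ratio of 5.83 (5.59 to 6.06) was the highest of the 108 among entries with reads in every library. Its MTA-GFP IP was the highest library and its control IP the lowest.

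The abundant ENSRNA049493310, of 118 bases, stood at 168, 364, 326 and 43.6 RPM in the same order. Its control IP was again the lowest library, at 7.49-fold below its input.

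**Figure D3:**
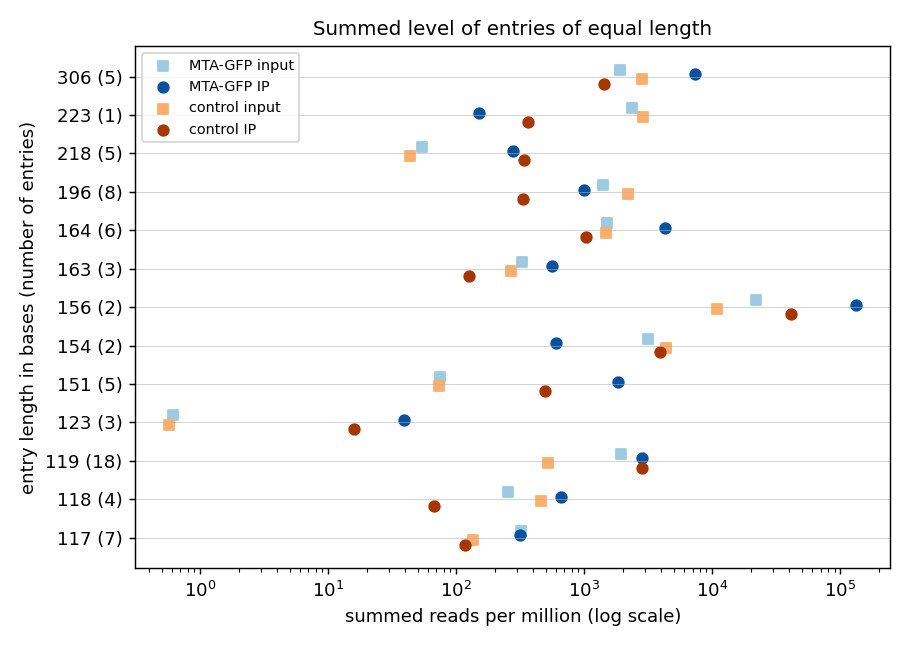
Summed RPM (log axis) of entries of equal length in the 4 libraries, for the 10 lengths with at least 3 entries and for 154, 156 and 223 bases. Squares are inputs and circles are IPs, and the sums for 151 bases lie at 74.6 and 73.7 in the inputs against 1839 and 491 in the IPs.

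The 6 entries of 164 bases took 1491 RPM in the MTA-GFP input, 4236 in the MTA-GFP IP, 1490 in the control input and 1022 in the control IP. The inputs were alike, the MTA-GFP IP was higher and the control IP lower, with log2 double ratios of 1.57 to 2.63. The median log2 double ratio of all 7911 entries was 3.15, above each of these. ENSRNA049495693 led them with 822, 2749, 563 and 635 RPM. The 2 nuclear ribosomal RNA genes of this length in the reference had another pattern, with a summed 11.1-fold with MTA-GFP and 16.2-fold with the control.

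Of the 8 entries of 196 bases, 6 were lower in control IP over input by the size rule, against 56.7% of all entries. ENSRNA049493788 stood at 447 RPM in the MTA-GFP input, 148 in the MTA-GFP IP, 791 in the control input and 49.9 in the control IP. Both IPs lay below both inputs, 3.03-fold with MTA-GFP and 15.9-fold with the control. The length group as a whole stood at 1399, 990, 2198 and 333 RPM.

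Entries of 218 bases gave similar values in the 2 IPs. The 5 entries summed to 54.3 RPM in the MTA-GFP input, 276 in the MTA-GFP IP, 43.5 in the control input and 341 in the control IP. All 5 were higher in both IPs by the size rule, against 5.49% of all entries, and their log2 double ratios ran from -1.03 to -0.08. Their levels in MTA-GFP IP over control IP had log2 ratios from -0.53 to 0.21, whereas the median of all 7911 entries was 2.23.

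Of the 463 entries of 119 bases, 18 reached the minimum, and 303 had less than 1 read in all. The 11 equal entries of this length, among them ENSRNA049493520, each stood at 173 RPM in the MTA-GFP input, 252 in the MTA-GFP IP, 44.1 in the control input and 253 in the control IP. The control input was the 1 low library, and the other 3 lay close together. The 11 entries summed to 0.191%, 0.278%, 0.0485% and 0.278% of reads. The sum was 1.45-fold with MTA-GFP, 5.74-fold with the control and 0.254 in the double ratio, but 0.997-fold (0.989 to 1.01) in MTA-GFP IP over control IP. The 445 entries of this length below the minimum together had 862, 286, 202 and 333 reads. Their sum was 0.404-fold with MTA-GFP (0.352 to 0.462) and 1.46-fold with the control (1.22 to 1.75), against 1.45-fold and 5.74-fold for the 11 equal entries, and its double ratio was 0.277.

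The named snRNA genes of the nucleus, summed over 82 entries, were at 0.829-fold with MTA-GFP and 0.139-fold with the control. The 287 named snoRNA entries were at 3.71-fold and 2.72-fold. The unnamed entries as a whole, at 4.29-fold and 1.96-fold, were nearer the snoRNA genes. That sum rests mostly on the pair of 156 bases, and the other 106 entries were at 1.55-fold and 0.730-fold. The lengths of 118 and 196 bases had control ratios of 0.145-fold and 0.152-fold, near that of the snRNA genes. With MTA-GFP the 118-base entries were at 2.62-fold, above the snRNA genes, and those of 196 bases at 0.708-fold. This is a comparison of sums in 4 libraries and assigns no entry to a class.

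The 10 entries under 100 bases had 0.155 to 2.50 RPM in the control IP and 0.166 to 0.970 in the MTA-GFP IP, against 1.55 to 11.1 in the MTA-GFP input and 2.57 to 9.18 in the control input. All 10 were lower in both IPs by the size rule, as were 3.44% of all entries. The 10 entries reached the read minimum through the inputs, so these 2 figures are not a fair contrast. The most abundant was the equal pair ENSRNA049494876 and ENSRNA049494883 of 77 bases, each with 489, 12, 368 and 29.5 reads. The inputs held nearly all reads of the pair, 32.2-fold more with MTA-GFP and 13.6-fold more with the control after scaling to depth.

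ENSRNA049494790 (91 bases) had 239, 35, 277 and 113 reads, ENSRNA049494796 (93 bases) had 246, 19, 267 and 16, and ENSRNA049494871 (75 bases) had 164, 22, 176 and 46. Each was lower in both IPs, and the double ratio intervals of the last 2 included no change. The double ratios of the 10 entries were above 0 on the log2 scale for 5 and below 0 for the other 5.

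The extreme ratios of single entries rested mostly on a library at 0 reads. After rounding, 12 of the 108 entries had such a library. ENSRNA049494924 and ENSRNA049494930 (117 bases) each had 4666 reads in the MTA-GFP input, 2621 in the MTA-GFP IP, 0 in the control input and 2288 in the control IP. Setting the 0 to 3 reads, the control IP was at least 675-fold higher than its input. ENSRNA049495709, of the same length, had 44.3, 78.6, 154 and 0 reads, with the control IP at least 58.0-fold lower than its input. Bounds of this kind take the other library's reads as exact. They also take the 0 as a count, and fail if reads of the entry were assigned to like entries.

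Summed over the 7 entries of 117 bases, the extremes cancelled. The sum was 322 RPM in the MTA-GFP input, 313 in the MTA-GFP IP, 134 in the control input and 118 in the control IP, with a log2 double ratio of 0.15 against -12.53 to 9.57 for the single entries. The other abundant entry of this length, ENSRNA049495710, had 4692, 5248, 5100 and 623 reads. The control input reads of the length thus lay almost wholly on ENSRNA049495710, whereas those of the MTA-GFP input were spread over it and the equal pair. How reads were divided between entries of one length was not tested here.

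**Figure D4:**
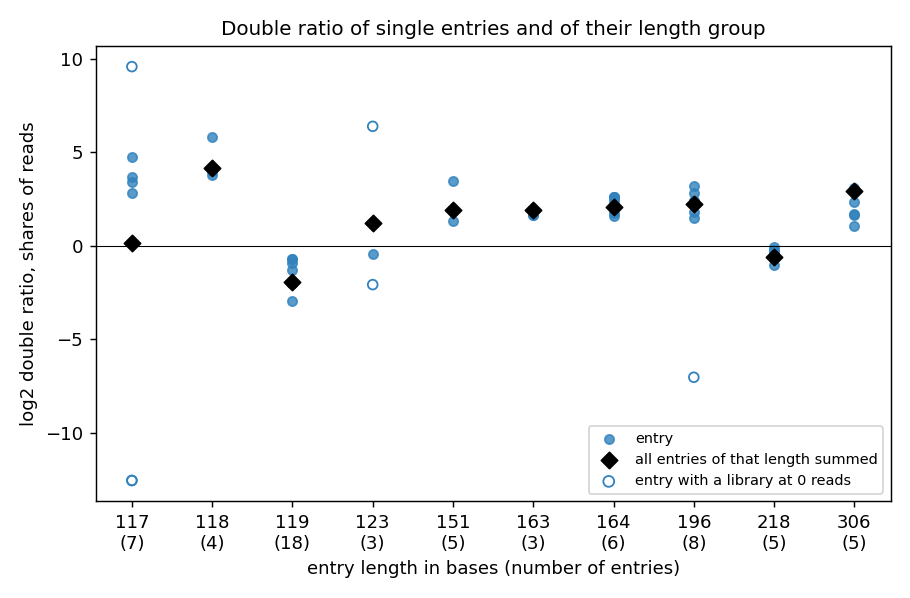
Log2 double ratio of shares of all reads for single entries (circles, open where a library had 0 reads) and for the sum of all entries of that length (black diamonds), for the 10 lengths with at least 3 entries. Entries of 117 bases range from -12.53 to 9.57 around a sum of 0.15. Those of 118, 151, 163, 164 and 306 bases lie above 0, and those of 119 and 218 bases below it.

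ENSRNA049495695 (162 bases) had 0, 122, 105 and 0 reads. It was at least 49.5-fold higher with MTA-GFP and at least 39.5-fold lower with the control. ENSRNA049495692 (196 bases) had 89.9, 360, 0 and 355 reads, at least 105-fold higher with the control. The summed entries of 196 bases went the other way, at 0.152-fold with the control, and how reads were divided between them was not tested. ENSRNA049493731 (123 bases) had 0, 802, 16 and 437 reads, at least 325-fold higher with MTA-GFP, and its log2 ratio with the control was 4.55 (3.88 to 5.42). Both IPs of the last entry were therefore above their inputs. ENSRNA049495647 (103 bases), with 69.8, 2789, 84.6 and 669 reads, was the highest in MTA-GFP IP over input among the entries named by rank with reads in every library, 48.2-fold, and was 6.93-fold with the control. Ranks use the interval end nearest 0. The entry of 148 bases, with fewer reads (9.14, 405, 15.6 and 97.2), was at 52.0-fold with MTA-GFP.

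The deposited TPM values gave the entries much more weight than the reads did. TPM divides reads by an effective length, and that length was equal in all 4 files and short for these entries, at 6.47 bases for the pair of 156 and 57.8 bases for entries of 306. The 108 entries took 16.3% of TPM in the MTA-GFP input, 51.7% in the MTA-GFP IP, 6.90% in the control input and 34.7% in the control IP. On this scale the ratio was 3.18 with MTA-GFP, 5.03 with the control and 0.631 in the double ratio, the reverse of the direction on reads. The pair of 156 bases alone took 46.6% of the TPM of the MTA-GFP IP, and nuclear mRNA took 0.137%.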

How the data were processed

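RNA of nuclear fractions was measured in 4 libraries, grouped by the sample titles. Per the submitters' processing notes, Trimmomatic, Bowtie, HISAT2 and Salmon were used with the build TAIR10, with roles, versions and strand setting not given in the sources used here. For every entry the authors deposited a length, an effective length, a TPM value and an estimated count, as named per the file headers. Estimated counts were used as deposited for shares and rounded for intervals.

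Shares have exact (Clopper-Pearson) 95% intervals, ratios of 2 libraries exact conditional intervals, and double ratios Poisson intervals on the log2 scale. Total reads were 43950307 for the MTA-GFP input, 36098699 for its IP, 40011502 and 45198238 for the control, where 3 reads are a share of 6.64e-06% to 8.31e-06%. Ribosomal RNA as a denominator includes loci within 10 kb of a nuclear ribosomal RNA gene. Members have no locus name, so none was removed as organellar or ribosomal. TMM factors came from edgeR 4.0.16 in R 4.3.3 over 15669 nuclear loci with at least 40 reads, and other steps used Python 3.11.15 with scipy 1.17.1. The calls were run on simulated counts with counting error only and changes planted in the MTA-GFP IP. Such counts check the code, and hold no spread between libraries and no division of reads between entries. Leaving out ENSRNA entries of the larger ribosomal length, the members needed a minimum of 200 reads.

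The reference gene table (TAIR10.1) gave symbols and gene types only. Members, gene lists and rules were chosen with earlier results of these data known. Entries named are the 5 with the most reads per length class and the 3 highest and lowest of each ratio by the interval end nearest 0. Those named for their length group or an equal partner, namely ENSRNA049495719, ENSRNA049493310, ENSRNA049493520, ENSRNA049495710, ENSRNA049757802, ENSRNA049757945, ENSRNA049493723 and ENSRNA049493712, were chosen after their values were seen. Of 3 root markers, the summed level was 0.420 to 2.74 RPM.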

Additional observations from a re-analysis of the deposited data

Results flagged for a closer look

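In 12 entries the MTA-GFP IP was higher than its input and the control IP lower than its input, each by at least 2-fold on the share of reads, so the 2 pairs moved in opposite directions. With 1 library per group the difference was not tested, and 43.7% of all 7911 entries met the same condition. All entries had a median log2 double ratio of 3.15. The log2 double ratios were 5.83 for ENSRNA049493691, 4.18 for ENSRNA049493678, 4.02 for ENSRNA049493310 and 3.78 for ENSRNA049493684, all of 118 bases. They were 2.60 for ENSRNA049495620 and 2.60 for ENSRNA049495626, an equal pair, and 2.40 for ENSRNA049493530, all of 164 bases. ENSRNA049495734 (306 bases) was at 3.09, ENSRNA049495687 (303 bases) at 2.43 and ENSRNA049493787 (196 bases) at 2.27. The fitted values of 16.12 for ENSRNA049495695 and 9.57 for ENSRNA049495709 rest on libraries with 0 reads and on the 0.5 reads added, and are no measure of size. On the TMM scale 1 entry met the condition, against 1.66% of all entries, and 16 met the opposite one, against 1.45%.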

How the results depend on the processing

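No paired analysis was possible because each group holds 1 library, and for the same reason no replicate could be left out. Minimums of 100 reads (128 entries), 500 reads (85 entries) or none kept the summed shares and ratios within their counting intervals, as the entries added or dropped hold few reads. Series of 4 shares below follow the library order of the text, and series of 4 ratios give the MTA-GFP ratio, the control ratio, the double ratio and the ratio of the inputs (MTA-GFP over control). Without the entry with the most reads the shares were 2.50%, 8.82%, 2.17% and 3.25% and the ratios 3.52, 1.50, 2.35 and 1.15. Without the pair of 156 bases, a choice made after seeing the data, they were 1.41%, 2.18%, 1.62% and 1.19%, and 1.55, 0.730, 2.12 and 0.867. Within 100 to 200 bases that choice turned the control ratio to 0.920 and the input ratio to 0.933. Of reads outside organelles the shares were 4.57%, 16.5%, 3.59% and 10.8%, and the ratios 3.60, 3.02, 1.19 and 1.27. With ribosomal RNA left out too they were 54.0%, 60.7%, 33.6% and 67.4%, and 1.12, 2.01, 0.560 and 1.61. The entries themselves, of unknown class and genome, stayed in both of these denominators. Per 100 nuclear mRNA reads the entries had 156.4, 183.3, 63.1 and 251.7 reads, with ratios of 1.17, 3.99, 0.294 and 2.48. TMM gave ratios of 0.954, 4.32, 0.221 and 2.58. TPM gave 16.3%, 51.7%, 6.90% and 34.7%, and 3.18, 5.03, 0.631 and 2.36. The denominator without organelles and ribosomal RNA also turned the input ratio under 100 bases to 1.03, the double ratio at 100 to 200 bases to 0.492 and the MTA-GFP ratio over 200 bases to 0.497. The mRNA denominator turned the input ratio under 100 bases to 1.59, the double ratio at 100 to 200 bases to 0.258, and over 200 bases the MTA-GFP ratio to 0.518, the double ratio to 0.588 and the input ratio to 1.43. Under 100 bases the double ratio turned to 1.08 with a minimum of 100 reads and 1.60 with none, and the input ratio to 1.04 with a minimum of 500. Counts of higher and lower entries on TMM were 25 and 52 with MTA-GFP, 4 and 77 in the double ratio, and 49 and 5 between inputs, where all 7911 entries gave 12.9% and 19.4%, 16.6% and 21.0%, and 12.6% and 14.1%. On the mRNA scale they were 28 and 47, 6 and 73, and 44 and 6, where all entries gave 17.3% and 13.5%, 24.3% and 13.9%, and 11.7% and 15.1%. At 4-fold, 38 were higher with MTA-GFP, 32 higher and 8 lower in the double ratio, and 9 and 5 between inputs. Summing entries of 1 length, also chosen after seeing the data, left 24 and 11 with MTA-GFP, 19 and 19 with the control, 20 and 7 in the double ratio and 5 and 5 between inputs. Summing equal entries left 15 lower in the double ratio and 17 higher between inputs. On reads outside organelles 44 were lower in the double ratio, against 3.88% of all entries. With IPs alone, chosen after seeing the data, 10 were lower, against 1.55%. With a minimum of 500 reads, 10 were lower with MTA-GFP and 7 between inputs. The counts at 4-fold, with entries summed and at a minimum of 500 reads were not made over all entries. Fewer entries were counted where entries were summed or the minimum raised, and the cause of the changes in counts was not tested. Counts of a few reads limit the entries under 100 bases.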
